A study of Mus musculus with 8 samples.

Results

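The genes described are the 2 REV-ERB genes, *Nr1d1* and *Nr1d2*, and 8 genes of the circadian clock around them, *Arntl*, *Clock*, *Per1*, *Per2*, *Per3*, *Cry1*, *Cry2* and *Dbp*. They were taken by symbol, 10 of 24542 genes, from the RNA-seq counts of all 8 samples, and each symbol was found in every sample. The cells were TX1072, a female mouse ESC line with 1 *Mus musculus castaneus* (Cast) and 1 C57BL/6 (B6) genome, in which doxycycline (DOX) induces *Xist* from the B6 X chromosome. The parental line, written *Hdac3*+/+, was compared with *Hdac3*-/- cells before DOX (0 hr) and once DOX at 1 µg/ml had acted for 24 hr, with 2 samples in each of 4 groups. Cells of both genotypes were grown in medium with fetal calf serum, LIF and the kinase inhibitor pair called 2i. The *Hdac3*-/- samples came from 2 clones made by CRISPR/Cas9, whose deletions remove part of *Hdac3* and not the whole gene, and which clone carries which replicate number was not given in the sources used here. The *Hdac3*+/+ replicates are duplicates of 1 line, so that p-values measure the spread between clones on one side and between cultures of a single line on the other. No step that sets the phase of the clock was given in the sources used here.

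HDAC3 is a histone deacetylase that works as the catalytic part of the NCoR corepressor complex. REV-ERBα and REV-ERBβ, encoded by *Nr1d1* and *Nr1d2*, are nuclear receptors that lack the activation helix, bind a half-site preceded by an A/T-rich stretch and recruit NCoR with HDAC3 to repress their targets, of which *Arntl* (BMAL1) is the classic one. BMAL1 and CLOCK form the activator that binds E-boxes at the *Per*, *Cry*, *Nr1d1*, *Nr1d2* and *Dbp* genes, and PER and CRY proteins feed back on it. In pluripotent ESCs this loop is known to run without a circadian rhythm, and rhythms appear as the cells differentiate.

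Total counts were 6940375 to 17125156 reads per sample, and *Hdac3* was checked first. Values are counts scaled to library size (CPM) with TMM factors. *Hdac3* had 38.0 and 42.5 CPM before DOX and 41.7 and 42.8 CPM after it in *Hdac3*+/+. In *Hdac3*-/- it had 5.86 and 7.44 CPM before and 5.55 and 7.05 CPM after, so that every *Hdac3*-/- sample lay below every *Hdac3*+/+ sample. The log2 fold change was -2.61 (SE 0.18, edgeR adjusted p = 0.000364) at 0 hr and -2.75 (SE 0.19, adjusted p = 0.000393) at 24 hr. The 7 ESC markers had 211.5 to 1647 CPM in every sample, and the 4 endoderm markers had at most 1.72 CPM. Other lineage markers were not absent. The 3 epiblast markers had up to 30.5 CPM and summed to 19.8 to 43.1 CPM. The 3 mesoderm markers had up to 66.7 CPM and summed to 37.0 to 80.7 CPM. *T* differed between the *Hdac3*+/+ replicates at 0 hr (27.6 and 66.7 CPM). Between genotypes, 0 of 2 epiblast and 0 of 3 mesoderm markers tested passed the threshold at either time. Markers also moved with genotype. The summed level of the ESC markers was 4208 to 4450 CPM in the *Hdac3*+/+ samples and 4896 to 5107 in the *Hdac3*-/- samples. Of the 7, 2 passed the edgeR threshold, both higher, *Nanog* (0.68 at 0 hr, adjusted p = 0.00468, and 0.55 at 24 hr, adjusted p = 0.00974) and *Zfp42* (0.70, adjusted p = 0.00826, and 0.44, adjusted p = 0.0259). Over all genes, 13.7% were called between genotypes at 0 hr and 10.9% at 24 hr. The mean of *Nanog* at 0 hr was 957.6 CPM in *Hdac3*+/+ and 1528 CPM in *Hdac3*-/-. The list did not rise as one. At each time 5 estimates were above 0 and 2 below, *Esrrb* (-0.02 and -0.24) and *Tfcp2l1* (-0.06 and -0.01). The 4 neural markers summed to 38.3 to 48.3 against 26.3 to 31.1 CPM. Of 2 tested, 1 passed the threshold at each time, *Sox1*, which was lower (-1.70, adjusted p = 0.0205, and -1.56, adjusted p = 0.0271). The 4 fibroblast markers summed to 40.63 to 59.9 against 28.9 to 40.59 CPM, with 0 of 2 tested past the threshold. The part of such cells in the results below was not tested. In bulk RNA, fewer cells that express a gene and less RNA per cell cannot be told apart. The median log2 fold change at 0 hr of genes on the autosomes that carry these 10 genes was -0.0015 to 0.056, while chromosome 16, which carries none of them, had -0.23.

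On GRCm38 (GENCODE M21), the REV-ERB genes lie apart, *Nr1d1* at chr11:98767932-98775333 (- strand) and *Nr1d2* at chr14:18204054-18239127 (- strand). The activator genes are *Arntl* at chr7:113207465-113314126 (+ strand) and *Clock* at chr5:76209868-76304792 (- strand). The PERIOD genes are *Per1* at chr11:69095217-69109960 (+ strand), *Per2* at chr1:91415982-91459324 (- strand) and *Per3* at chr4:151003652-151044665 (- strand), the cryptochrome genes are *Cry1* at chr10:85131700-85185064 (- strand) and *Cry2* at chr2:92403646-92434043 (- strand), and *Dbp* at chr7:45705088-45710203 (+ strand) encodes an output factor. All 10 are autosomal.

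The promoters were searched for short motifs of the kind that REV-ERB and the BMAL1-CLOCK activator bind, and binding itself was not tested. The half-site was searched without the A/T-rich stretch before it, so that a match alone does not mark a REV-ERB site. RefSeq windows on GRCm38.p6, 250 bases before to 50 bases after each start, matched 9 of the 10 genes with 13 windows, and 4 short motifs were searched on both strands: the nuclear receptor half-site AGGTCA, the E-box CACGTG, the D-box TTANGTAA bound by DBP and its relatives, and the cAMP response element TGACGTCA. They occur in 16.3%, 7.15%, 2.32% and 1.79% of all 32851 windows, respectively. Shown are the *Arntl* stretch with the half-site and the A/T-rich bases before it (chr7:113207524-113207547, + strand), and the 250 bases before the start of *Nr1d2* (chr14:18239107-18239356, - strand), of *Per1* (chr11:69098699-69098948, + strand) and of *Cry1* (chr10:85185055-85185304, - strand), with the half-site in capitals in the first 2 and the E-box in capitals in the others.
Arntl: ttagggaaggcagaaagtAGGTCA
Nr1d2: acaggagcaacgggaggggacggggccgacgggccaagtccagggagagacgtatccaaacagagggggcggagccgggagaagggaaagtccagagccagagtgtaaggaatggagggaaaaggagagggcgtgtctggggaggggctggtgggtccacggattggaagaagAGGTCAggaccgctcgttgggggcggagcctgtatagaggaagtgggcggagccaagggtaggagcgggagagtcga
Per1: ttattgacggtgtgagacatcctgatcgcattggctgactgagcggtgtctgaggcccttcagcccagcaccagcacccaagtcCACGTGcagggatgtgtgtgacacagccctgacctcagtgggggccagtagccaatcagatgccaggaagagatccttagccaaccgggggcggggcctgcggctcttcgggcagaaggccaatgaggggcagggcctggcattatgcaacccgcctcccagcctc
Cry1: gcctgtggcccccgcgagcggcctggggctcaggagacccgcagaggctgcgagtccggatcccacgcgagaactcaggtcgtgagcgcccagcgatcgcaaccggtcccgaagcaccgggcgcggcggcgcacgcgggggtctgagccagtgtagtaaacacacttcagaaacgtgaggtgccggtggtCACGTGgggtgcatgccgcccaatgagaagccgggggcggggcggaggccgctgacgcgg
The *Arntl* half-site lies 32 to 37 bases after the start, in the first, untranslated exon. The *Nr1d2* half-site lies 77 to 72 bases before the start, and the E-boxes lie 166 to 161 bases before that of *Per1* and 60 to 55 before that of *Cry1*. *Clock* and *Per1* hold the half-site on the other strand, and *Per3* holds 2 D-boxes. *Clock* has 3 windows and *Arntl* and *Per1* have 2 each, and their motifs were found in 1 window of each gene. The windows of *Clock* and *Per1* with motifs belong to starts inside the gene bounds given above. The shares of all windows are per window, so that genes with several windows have more chances of a match. None of the 4 motifs was found in the windows of *Nr1d1*, *Cry2* and *Dbp*, which says only that these letters are not in these windows.

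Most of the genes were expressed at moderate levels in these ESCs. To compare genes, counts were divided by exon length and scaled to a fixed total (TPM). At 0 hr in *Hdac3*+/+, the level of *Nr1d1* was highest with 40.9 ± 1.2 TPM, above 71.5% of the genes tested. *Per1* followed with 29.2 ± 1.6 TPM, *Cry1* with 24.3 ± 5.6, *Clock* with 19.9 ± 3.1 and *Nr1d2* with 16.0 ± 0.52 (SD, n = 2 each). *Arntl* had 10.9 ± 1.8 TPM, *Cry2* 9.22 ± 0.58 and the output gene *Dbp* 5.52 ± 1.3 (SD, n = 2 each). The last in the order were *Per3* with 0.633 ± 0.15 TPM and *Per2* with 0.148 ± 0.065 (SD, n = 2 each). Over all 8 samples, *Nr1d1* ran from 40.1 to 47.6 TPM and overlapped no other of the 10 genes. The ranges of each next pair from *Per1* down to *Dbp* overlapped, so that the order of neighbours does not exceed their spread. Genes farther apart in the order could be separate, as *Per1*, with at least 26.4 TPM, was from *Clock*, with at most 22.1. *Dbp*, with at least 4.58 TPM, lay apart from *Per3*, with at most 0.871, and the ranges of *Per3* and *Per2* overlapped.

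**Figure D1:**
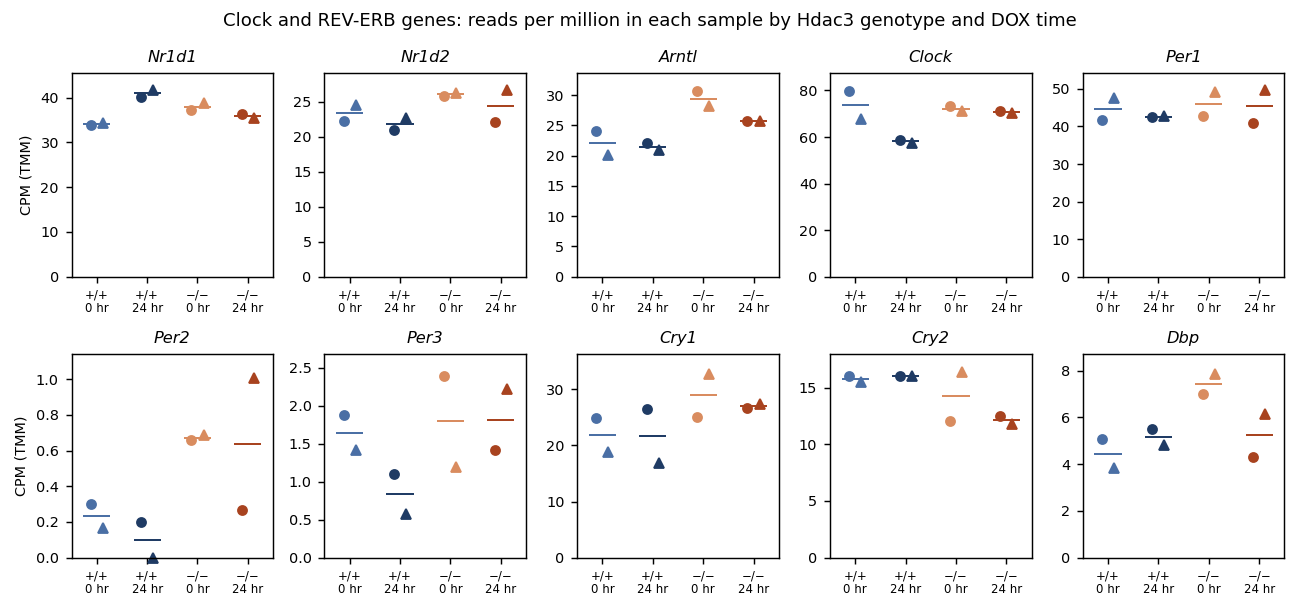
Scaled counts (CPM, y axis from 0) of the 10 genes in each of the 8 samples by *Hdac3* genotype and hours of DOX (x axis); circles are replicate 1, triangles replicate 2, and bars the group means. *Nr1d1* sits between 33.8 and 41.7 CPM in every sample, whereas *Per2* stays at or below 1.01 CPM.

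The first question was whether the clock genes differ when the deacetylase that the REV-ERBs recruit is lost, before *Xist* is induced. Of the 10 genes, 8 passed the filter of TPM above 1 in at least 2 samples, and 0 of 8 passed an adjusted p of 0.05 in edgeR's quasi-likelihood test, with 13.7% of 13383 genes called. DESeq2 and voom with limma also called 0 of 8. The replicate number was also added as 1 block shared by both genotypes, called the replicate block. It called 0 of 8 too, and 2908 of all genes in place of 1834. At an unadjusted p of 0.05, 2 of 8 were below the threshold, *Dbp* and *Arntl*, where 29.6% of all genes were. The median log2 fold change of the 8 genes was 0.16 against 0.0027 over all genes, and their median absolute change was 0.16 against 0.27.

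*Arntl*, the direct REV-ERB target, had 24.0 and 20.1 CPM in the *Hdac3*+/+ samples and 30.6 and 28.2 CPM in the *Hdac3*-/- clones. Both clones lay above both *Hdac3*+/+ samples. The difference was 0.42 on the log2 scale (SE 0.15, 1.34-fold, edgeR adjusted p = 0.112), with a 95% interval of 0.07 to 0.77. It was 0.48 when the *Hdac3*-/- replicate 2 was left out. In that fit the remaining clone is assumed to vary like the *Hdac3*+/+ samples.

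*Nr1d1* had 33.8 and 34.3 CPM in *Hdac3*+/+ and 37.1 and 38.8 CPM in *Hdac3*-/- at 0 hr. The groups did not overlap, yet the log2 fold change was only 0.16 (SE 0.12, adjusted p = 0.450). Its paralog *Nr1d2* had 22.2 and 24.6 CPM in *Hdac3*+/+ and 25.9 and 26.3 CPM in *Hdac3*-/-. The clones were again the higher samples, by 0.15 on the log2 scale (SE 0.14, adjusted p = 0.525). The 95% intervals reach 1.36-fold higher for *Nr1d1* and 1.40-fold higher for *Nr1d2*.

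*Clock*, the partner of BMAL1, had 79.8 and 67.7 CPM in *Hdac3*+/+ and 73.2 and 71.3 CPM in *Hdac3*-/-. Both clones lay within the range of the *Hdac3*+/+ samples, and the log2 fold change was -0.03 (SE 0.12, adjusted p = 0.901). Its interval of -0.30 to 0.24 was the narrowest of the 8 genes.

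Among the feedback repressors, *Per1* had 41.6 and 47.6 CPM in *Hdac3*+/+ and 42.8 and 49.3 CPM in *Hdac3*-/-. The groups overlapped, with a log2 fold change of 0.04 (SE 0.14, adjusted p = 0.866). *Cry1*, whose protein represses BMAL1-CLOCK directly, had 24.9 and 18.9 CPM in *Hdac3*+/+ and 25.1 and 32.8 CPM in *Hdac3*-/-. Both clones were above both *Hdac3*+/+ samples, though replicate 1 of each genotype differed by little, and the log2 fold change was 0.40 (SE 0.19, adjusted p = 0.214). Without the *Hdac3*-/- replicate 1 it was 0.59, again with 1 clone that is assumed to vary like *Hdac3*+/+. *Cry2* had 16.0 and 15.5 CPM in *Hdac3*+/+ and 12.1 and 16.4 CPM in *Hdac3*-/-. Here the clones differed more from each other than from *Hdac3*+/+, and the log2 fold change was -0.15 (SE 0.20, adjusted p = 0.659).

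*Dbp*, a PAR bZIP factor and a standard readout of BMAL1-CLOCK activity, had the largest estimate of the 8 genes. It had 5.09 and 3.81 CPM in *Hdac3*+/+ and 6.99 and 7.87 CPM in *Hdac3*-/-. Both clones lay above both *Hdac3*+/+ samples, with a log2 fold change of 0.73 (SE 0.26, 1.66-fold, adjusted p = 0.105) and a 95% interval of 0.13 to 1.33. Without the *Hdac3*-/- replicate 1 the value was 0.82, under the same assumption for the lone clone.

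Counted over all 10 genes at 0 hr, 6 had both clones above both *Hdac3*+/+ samples (*Nr1d1*, *Nr1d2*, *Arntl*, *Per2*, *Cry1* and *Dbp*), 0 had both below, and 4 overlapped. Over the 13964 genes that passed the filter in the 8 samples, 29.4% had both clones above and 29% had both below. Of the 8 members that passed it, 5 had both clones above.

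At 24 hr of DOX, when *Xist* had been induced, 0 of 8 genes passed an adjusted p of 0.05 between genotypes, with 10.9% of 13263 genes called. DESeq2 and voom with limma called 0 of 8 as well. *Clock* was the 1 gene below an unadjusted p of 0.05, where 27% of all genes were. *Clock* had 58.9 and 57.5 CPM in *Hdac3*+/+ and 71.1 and 70.5 CPM in *Hdac3*-/-. Replicates lay close together and the groups were apart, with a log2 fold change of 0.28 (SE 0.11, 1.21-fold, adjusted p = 0.143).

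*Nr1d1* had 40.2 and 41.7 CPM in *Hdac3*+/+ and 36.3 and 35.5 CPM in *Hdac3*-/- at 24 hr. The clones were thus the lower samples at this time, by -0.19 on the log2 scale (SE 0.13, adjusted p = 0.394). *Nr1d2* had 21.0 and 22.8 CPM in *Hdac3*+/+ and 22.1 and 26.7 CPM in *Hdac3*-/-. Its groups overlapped, with a log2 fold change of 0.15 (SE 0.17, adjusted p = 0.621).

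*Arntl* had 22.0 and 20.9 CPM in *Hdac3*+/+ and 25.8 in both *Hdac3*-/- samples at 24 hr. The clones remained above, with a log2 fold change of 0.26 (SE 0.15, adjusted p = 0.325). *Cry1* had 26.5 and 16.9 CPM against 26.6 and 27.5 CPM, and the *Hdac3*+/+ replicates differed by more than the genotypes (0.30, SE 0.21, adjusted p = 0.410). *Cry2* had 16.0 and 16.1 CPM against 12.5 and 11.8 CPM. Both clones lay below both *Hdac3*+/+ samples, with a log2 fold change of -0.40 (SE 0.19, 1.32-fold lower, adjusted p = 0.207).

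*Per1* had 42.5 and 42.7 CPM in *Hdac3*+/+ and 41.0 and 49.7 CPM in *Hdac3*-/- at 24 hr, and its groups overlapped (0.09, SE 0.14, adjusted p = 0.747). *Dbp* had 5.51 and 4.84 CPM against 4.32 and 6.14 CPM. The clones enclosed the *Hdac3*+/+ samples, and the log2 fold change was 0.0023 (SE 0.31, adjusted p = 0.998). Over all 10 genes, 5 had both clones above (*Arntl*, *Clock*, *Per2*, *Per3* and *Cry1*), 2 had both below (*Nr1d1* and *Cry2*) and 3 overlapped, where 28.8% of the genes that passed the filter had both above and 28% had both below. Of the 8 members that passed it, 3 had both above and 2 both below. *Arntl* and *Cry1*, which passed the filter, had both clones above at both times. So did *Per2*, which failed it, on 0 to 11 reads per sample. The share of all genes with this at both times was not computed, so no result is drawn from it.

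**Figure D2:**
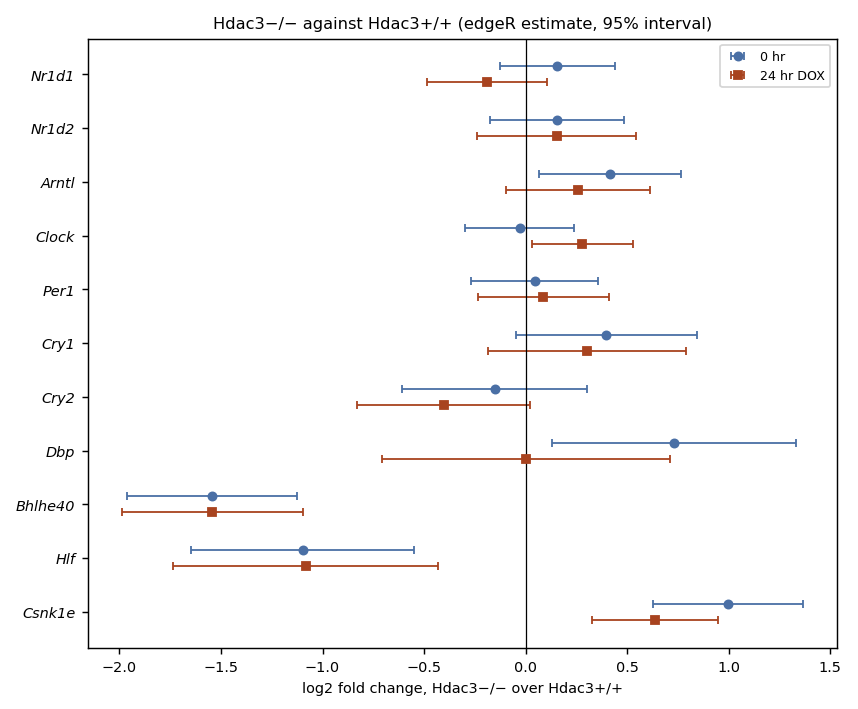
Log2 fold change of *Hdac3*-/- over *Hdac3*+/+ (x axis) at 0 hr (circles) and 24 hr of DOX (squares) for the 8 genes tested and 3 further clock genes (y axis), with 95% intervals from edgeR. The 8 upper genes lie between -0.40 and 0.73, while *Bhlhe40* is at -1.54 at both times.

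The second question was whether DOX moved the clock genes within a genotype. In *Hdac3*+/+, 0 of 8 genes passed an adjusted p of 0.05, with 0.201% of 13964 genes called. The unadjusted p was below 0.05 for 2 of 8, *Clock* and *Nr1d1*, where it was for 7.28% of all genes. *Clock* went from 79.8 and 67.7 CPM at 0 hr to 58.9 and 57.5 CPM at 24 hr. All of its 24 hr values lay below its 0 hr values, and the log2 fold change was -0.34 (SE 0.10, unadjusted p = 0.00898, adjusted p = 0.379). *Nr1d1* went from 33.8 and 34.3 CPM to 40.2 and 41.7 CPM. Its values did not overlap either, with a log2 fold change of 0.26 (SE 0.10, unadjusted p = 0.0314, adjusted p = 0.609). The same was true of *Cry2*, with a log2 fold change of only 0.03 (SE 0.18), and of *Per3*, which failed the filter. Non-overlap between the times was not counted over all genes, so no result is drawn from it.

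Since samples with the same replicate number deviated together, the comparison was repeated with the replicate number as a block within each genotype. With this replicate block within genotype, *Clock* fell by 0.35 on the log2 scale (adjusted p = 0.000222) and *Nr1d1* rose by 0.26 (adjusted p = 0.0483). It called 1609 genes, or 11.5% of all genes tested, in place of 28. With the replicate block shared by both genotypes, the adjusted p was 0.113 for *Clock* and 0.271 for *Nr1d1*.

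In *Hdac3*-/-, 0 of 8 genes passed an adjusted p of 0.05, with 0.0215% of all genes called. The replicate block called 0 of 8 and 13 of all genes, or 284 within genotype, in place of 3. The count at an unadjusted p of 0.05 was also 0 of 8, where 1.98% of all genes were below it. The log2 fold changes of all 8 genes were below 0, from -0.51 (*Dbp*, SE 0.26) to -0.02 (*Per1*, SE 0.13), with a median of -0.10 against -0.0011 over all genes. *Dbp* went from 6.99 and 7.87 CPM to 4.32 and 6.14 CPM, so that its groups did not overlap. Nor did those of *Arntl*, *Clock* and *Nr1d1*, all lower at 24 hr. The share of all genes without overlap here was not computed, so no result is drawn from it. *Clock* had 73.2 and 71.3 CPM at 0 hr and 71.1 and 70.5 CPM at 24 hr, a log2 fold change of -0.03 (SE 0.10). *Nr1d1* had 37.1 and 38.8 CPM at 0 hr and 36.3 and 35.5 CPM at 24 hr, a log2 fold change of -0.08 (SE 0.10).

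The difference between genotypes in the DOX response was tested as an interaction in the same fit. It was past the threshold for 0 of 8 genes and for 0% of 13964 genes in edgeR, and for 0 genes in voom with limma and 1 gene in DESeq2, which was none of the 8. The replicate block within genotype called 293 genes and again none of the 8. At an unadjusted p of 0.05 it was 1 of 8 genes, *Nr1d1*, where 1.9% of all genes were below it. The interaction of *Nr1d1* was -0.34 on the log2 scale (SE 0.15, unadjusted p = 0.0426, adjusted p = 1.00). For *Clock* it was 0.31 (SE 0.14, unadjusted p = 0.0589) and for *Dbp* -0.73 (SE 0.38, unadjusted p = 0.0847). The responses of *Clock* and *Nr1d1* to DOX are therefore not shown to differ between genotypes.

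**Figure D3:**
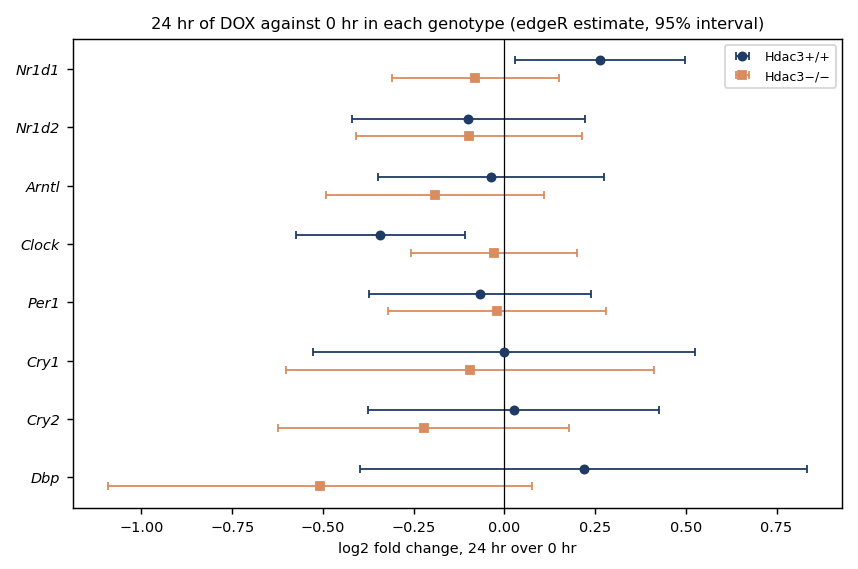
Log2 fold change of 24 hr of DOX over 0 hr (x axis) for the 8 genes tested (y axis) in *Hdac3*+/+ (circles) and *Hdac3*-/- (squares), with 95% intervals from edgeR. In *Hdac3*+/+ the intervals of *Nr1d1* (0.03 to 0.50) and *Clock* (-0.57 to -0.11) leave out 0, and in *Hdac3*-/- all 8 intervals hold 0.

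*Per2* and *Per3*, PERIOD genes like *Per1*, did not pass the filter and were tested only without it. *Per2* had 4 and 2 reads in *Hdac3*+/+ at 0 hr and 11 and 8 reads in *Hdac3*-/-. At 24 hr it had 2 and 0 reads in *Hdac3*+/+ and 3 and 10 reads in *Hdac3*-/-. The clones were higher at both times, but the adjusted p was 0.366 at 0 hr and 0.288 at 24 hr. *Per3* had 25 and 17 reads in *Hdac3*+/+ and 40 and 14 reads in *Hdac3*-/- at 0 hr, which is 1.87 and 1.41 CPM against 2.39 and 1.20 CPM. At 24 hr it had 11 and 4 reads against 16 and 22 reads. The groups of *Per3* overlapped at 0 hr and not at 24 hr, with an adjusted p of 0.876 and 0.305. *Per3* shares part of its position and strand with *Camta1*, and *Clock* with the pseudogene *Ube2n-ps1* and the annotated transcript Gm43658, so that reads there are less certain. *Nr1d1* overlaps *Thra*, *Dbp* overlaps *Sphk2* and *Cry2* overlaps D930015M05Rik on the opposite strand, and the counting was stranded.

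A list of 24 other clock genes, with the remaining activators, repressors, kinases and output factors, was read in the same fits. In it 19 genes were tested, and 1 rose and 2 fell in *Hdac3*-/- at each time, the same 3 genes. The share is 3 of 19 beside 13.7% and 10.9% of all genes. *Bhlhe40* (DEC1) encodes a basic helix-loop-helix repressor that competes for E-boxes. It had 88.3 and 60.8 CPM in *Hdac3*+/+ and 26.5 and 24.5 CPM in *Hdac3*-/- at 0 hr, and 83.4 and 57.6 CPM against 26.6 and 21.9 CPM at 24 hr. Every *Hdac3*-/- value lay far below every *Hdac3*+/+ value. The log2 fold change was -1.54 (SE 0.18, 2.92-fold lower, edgeR adjusted p = 0.00242) at 0 hr and -1.54 (SE 0.19, adjusted p = 0.00325) at 24 hr, and the call held in all alternatives.

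*Hlf* encodes a PAR bZIP factor related to DBP. It had 8.98 and 9.79 CPM in *Hdac3*+/+ and 4.01 and 4.79 CPM in *Hdac3*-/- at 0 hr, and 10.1 and 13.7 CPM against 4.58 and 6.64 CPM at 24 hr. The groups were apart at both times, with a log2 fold change of -1.10 (SE 0.24, adjusted p = 0.0225) at 0 hr and -1.08 (SE 0.29, adjusted p = 0.0464) at 24 hr. The 24 hr call was lost with DESeq2 (adjusted p = 0.0691) and with voom and limma (adjusted p = 0.0523). Leaving out either *Hdac3*+/+ replicate also ended it, with an adjusted p of 0.133 (replicate 1) and 0.176 (replicate 2) at 0 hr and of 0.125 and 0.406 at 24 hr.

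*Csnk1e* encodes casein kinase 1ε, which phosphorylates PER proteins. It had 43.6 and 37.3 CPM in *Hdac3*+/+ and 92.0 and 69.1 CPM in *Hdac3*-/- at 0 hr, and 54.6 and 51.8 CPM against 91.9 and 73.9 CPM at 24 hr. All *Hdac3*-/- values were above all *Hdac3*+/+ values, with a log2 fold change of 1.00 (SE 0.16, adjusted p = 0.00733) at 0 hr and 0.64 (SE 0.14, adjusted p = 0.0220) at 24 hr. The call was lost without the *Hdac3*+/+ replicate 2 at 0 hr (adjusted p = 0.0769), and without replicate 1 (0.132) or replicate 2 (0.241) at 24 hr.

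**Figure D4:**
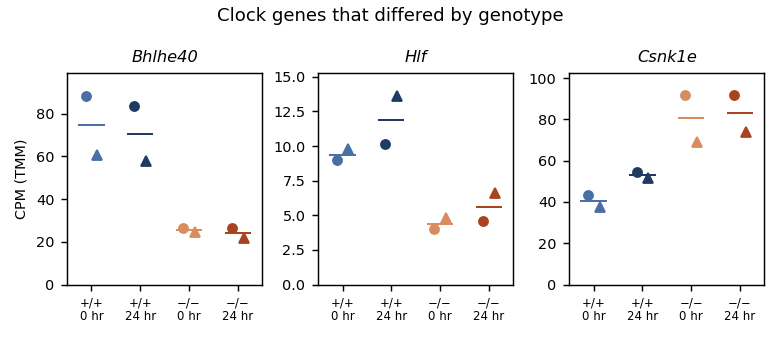
Scaled counts (CPM, y axis from 0) of *Bhlhe40*, *Hlf* and *Csnk1e* in each sample by *Hdac3* genotype and hours of DOX (x axis); circles are replicate 1, triangles replicate 2, and bars the group means. *Bhlhe40* and *Hlf* are lower and *Csnk1e* higher in every *Hdac3*-/- sample.

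With the replicate block, 7 of the 19 genes passed at 0 hr, where 21.7% of all genes did, and 4 at 24 hr, where 15% did. *Tef*, the third PAR bZIP factor, was the 1 further gene at both times, with a log2 fold change of 0.80 (adjusted p = 0.0184) and 0.84 (adjusted p = 0.0199). *Tef* had 10.9 and 10.5 CPM in *Hdac3*+/+ at 0 hr and 23.4 and 14.3 CPM in *Hdac3*-/-, so that the clones stood apart from each other. The others at 0 hr were *Npas2* (-1.26, adjusted p = 0.0427), *Noct* (0.44, adjusted p = 0.0199) and *Ciart* (0.87, adjusted p = 0.0403). With DOX, 0 of 19 genes of this list passed in either genotype, with 2 of 19 and 0 of 19 at an unadjusted p of 0.05 in *Hdac3*+/+ and *Hdac3*-/-. The replicate block within genotype called 2 of 19 in *Hdac3*+/+, where it called 11.5% of all genes, *Csnk1e* (0.39, adjusted p = 0.000152) and *Noct* (0.42, adjusted p = 4.72e-05).

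In the list of 6 corepressor genes, which includes *Hdac3* itself, 2 rose and 1 fell at 0 hr, and 1 rose and 1 fell at 24 hr, beside 13.7% and 10.9% of all genes called. *Tbl1x*, an X-linked subunit of the NCoR complex, had 189.4 and 183.3 CPM in *Hdac3*+/+ and 271.0 and 288.4 CPM in *Hdac3*-/- at 0 hr. Both clones were higher, with a log2 fold change of 0.59 (SE 0.09, adjusted p = 0.00601), and of 0.79 (SE 0.10, adjusted p = 0.00284) at 24 hr. Without *Hdac3*+/+ replicate 1 or replicate 2 the adjusted p was 0.0687 and 0.0870 at 0 hr, and without replicate 2 it was 0.0657 at 24 hr. With DOX, *Tbl1x* fell by 0.72 on the log2 scale in *Hdac3*+/+ (SE 0.08, adjusted p = 0.0161), to 109.4 and 116.8 CPM. In *Hdac3*-/- it went to 194.1 and 198.5 CPM (-0.51, SE 0.08, adjusted p = 0.136, and 0.0212 with the replicate block), and the interaction was 0.21 (SE 0.11, unadjusted p = 0.0872, adjusted p = 1.00). *Tbl1x* also changed its log2 ratio of B6 to Cast reads with DOX. The change was -2.23 (SE 0.22, edgeR adjusted p = 5.48e-06) in *Hdac3*+/+ and -1.26 (SE 0.17, adjusted p = 0.00071) in *Hdac3*-/-, where 1.61% and 0.406% of all genes were called. Its part in the fall of total *Tbl1x* was not tested. *Tbl1xr1*, the autosomal paralog of *Tbl1x*, had 131.2 and 123.4 CPM against 156.1 and 184.7 CPM at 0 hr (0.42, SE 0.11, adjusted p = 0.0421). That call was lost without either *Hdac3*+/+ replicate, with an adjusted p of 0.202 and 0.283. *Ncor1*, a scaffold that binds REV-ERB, had a log2 fold change of 0.24 (SE 0.09, adjusted p = 0.104) at 0 hr.

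Reads that cover a difference between the B6 and Cast genomes allowed both alleles to be followed. With at least 10 such reads in all 8 samples, 7 of the 10 genes were tested (*Per2*, *Per3* and *Dbp* had too few). For a change of the B6:Cast ratio, 0 of 7 passed an adjusted p of 0.05 in any of 3 contrasts. Between genotypes at 0 hr, 0.667% of 9595 genes were called and 8.55% had an unadjusted p below 0.05, against 0 of 7. With DOX in *Hdac3*+/+, 1.61% were called and 5.46% had an unadjusted p below 0.05, again against 0 of 7. With DOX in *Hdac3*-/-, 0.406% were called and 4.36% had an unadjusted p below 0.05, and 1 of 7 was among the latter, *Cry1* (-0.60 on the log2 scale, SE 0.27, unadjusted p = 0.0369, adjusted p = 1.00). The allelic counts were tested with edgeR only. The replicate block called 109 genes in place of 64 between genotypes at 0 hr, and 0 of 7.

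*Arntl* stood out by its level of imbalance rather than by a change. Its B6 share was 72.8% and 72.7% in *Hdac3*+/+ before DOX, 71.2% and 74.7% after it, and 72.5%, 73.5%, 76.7% and 66.9% in the *Hdac3*-/- samples in the same order. All 8 samples lay above 50%, on 75 to 265 allelic reads each. Summed over the samples, 930 of 1282 reads were B6, or 72.5% (95% Clopper-Pearson interval 70.0% to 75.0%, which covers counting error only). Of 9262 autosomal genes, with a median B6 share of 50.4% and a 5th to 95th percentile range of 32.2% to 68.4%, 229 (2.47%) had a lowest sample at or above that of *Arntl*.

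The other genes were closer to balance. The summed B6 share was 57.2% for *Cry1*, 51.6% for *Nr1d2*, 50.9% for *Clock*, 47.7% for *Per1*, 45.6% for *Nr1d1* and 42.9% for *Cry2*. *Nr1d1* ran from 38.4% to 51.2% over the samples. Its share was 51.2% and 50% (98 of 196 reads) before DOX and 42.1% and 44.6% after it in *Hdac3*+/+, and 45.8% and 48.2% before and 38.4% and 43.3% after in *Hdac3*-/-. The 24 hr values lay below the 0 hr values in both genotypes, with a log2 change of -0.43 (SE 0.23, adjusted p = 0.968) and -0.37 (SE 0.22, adjusted p = 1.00). The same held for *Cry1*, while the 24 hr values of *Cry2* lay above its 0 hr values in both genotypes. How many of all genes separate in this way was not computed, so no result is drawn from it.

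**Figure D5:**
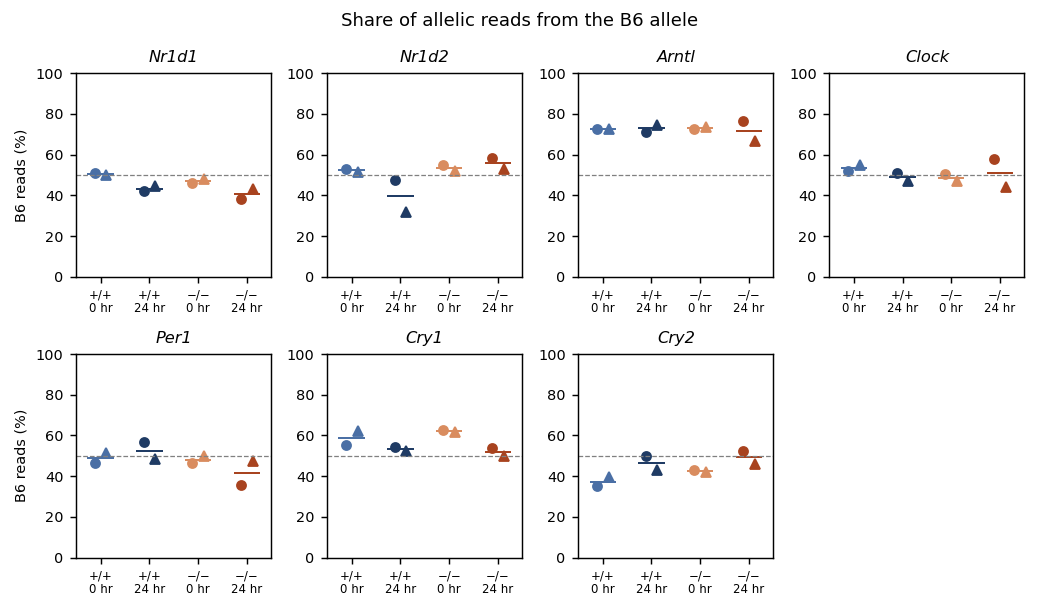
Share of allelic reads from the B6 allele (%, y axis) of the 7 genes tested in each sample by *Hdac3* genotype and hours of DOX (x axis), with the dashed line at 50%; circles are replicate 1, triangles replicate 2, and bars the group means. *Arntl* lies between 66.9% and 76.7% in all 8 samples.

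To describe how the REV-ERB genes varied over the samples, log2 CPM was correlated with that of all 13964 genes over the 8 samples, which share the genotype and DOX groups and the replicate numbers. The genes most like *Nr1d1* were B230118H07Rik (r = 0.970), *Arfrp1* (0.919) and *Pxt1* (0.919). Those most like *Nr1d2* were *Zglp1* (0.968), *Igf2bp1* (0.963) and *Zfp664* (0.959). *Nr1d1* and *Nr1d2* themselves had r = -0.216. Among the other members tested, *Clock* was farthest from *Nr1d1* (r = -0.795) and *Per1* was closest to *Nr1d2* (r = 0.790).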

How the data were processed

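RNA-seq was made from TX1072 *Hdac3*+/+ cells and *Hdac3*-/- clones. According to the study's methods and processing notes, the authors removed rRNA reads, mapped with Tophat 2.1.0 to mm10 and counted reads over refFlat exons with featureCounts 1.5.1, by strand. The authors deposited 1 table per sample with raw total counts, B6 and Cast counts, and the B6 fraction of allelic reads for genes with 10 or more, which was recomputed here from the counts. Samples were grouped by the labels. The genes and lists were chosen with earlier results of these data known.

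Counts were tested with edgeR 4.0.16 (R 4.3.3; TMM, quasi-likelihood, Benjamini-Hochberg over all genes tested, threshold 0.05). Genotypes were compared on the 4 samples of each time, and DOX and its interaction with genotype on all 8, keeping genes whose TPM exceeded 1 in 2 or more samples (GENCODE M21 exon lengths; 23882 symbols matched directly, 284 by a RefSeq synonym, 376 not). B6 and Cast counts entered 1 fit with an effect per sample and a B6 term per group. Alternatives used DESeq2 1.42.0, limma 3.58.1, other filters and scaling, blocks and left-out samples. All 10 genes are named, with each gene of the other clock, corepressor and immediate early lists, and of the markers, past the threshold between genotypes. The values of 1 listed gene are not reported here. Calculations and plots used Python 3.11.15, pandas 2.3.3 and matplotlib 3.10.9.

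Samples with the same replicate number in their titles deviated together over 13964 genes. The r was 0.591 between the 2 *Hdac3*-/- groups and 0.152 to 0.248 in the other pairs of groups. The blocked fits therefore took the numbers to pair the samples, which the titles do not state. In *Hdac3*-/- the block also holds the clone, if the number follows it. Replicates differed beyond sampling noise (chi-square per degree of freedom 3.94 to 12.9), and none was a duplicate. Rn45s took 7.04% to 8.31% of reads, and 30.1% to 31.6% were allelic. On simulated data, the 0 hr genotype test recovered 70 of 100 genes changed by 1 and 98 of 99 changed by 2 on the log2 scale, with 12 false calls among 13346 genes. The interaction recovered 57 and 90 of 100 among 13807 genes, and the allelic test at 0 hr 28 and 91 of 100 among 9595.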

Additional observations from a re-analysis of the deposited data

How the results depend on the processing

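Calls and directions of the genes tested (8 in expression, without *Per2* and *Per3*, and 7 in allelic counts, also without *Dbp*) were the same in 347 of 358 values under other settings and in 387 of 424 values with 1 sample left out. The limits are the 2 samples per group, the *Hdac3*-/- clones that differ, and depth for *Per2*, *Per3* and the allelic counts; the cause of the moves below was not tested. The replicate block changed the calls given in the report and no other call of these genes.

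Genes called between genotypes at 0 hr were 1834, against 3107 with no filter, 2908 with the replicate block, 834 with an absolute log2 change above 1 as well, and 345 to 3382 with 1 sample left out. At 24 hr they were 1450, against 2641 with no filter, 658 with the fold limit and 145 to 3595. With DOX in *Hdac3*+/+ they were 28, against 116 (DESeq2), 10 (voom and limma), 275 (no filter), 187 (replicate block), 1609 (replicate block within genotype), 7 (fold limit) and 2 to 91. With DOX in *Hdac3*-/- they were 3, against 15 (DESeq2), 36 (no filter), 13 (replicate block), 284 (replicate block within genotype) and 2 with any sample left out. The interaction had 0, against 1 (DESeq2), 6 (no filter) and 293 (replicate block within genotype). Allelic calls at 0 hr were 64, against 109 with the replicate block and 12 to 121; with DOX they were 154 (83 to 158) in *Hdac3*+/+ and 39 (27 to 44) in *Hdac3*-/-. Of the 8 genes tested, 0 to 2 passed at 0 hr with 1 sample left out, and 2 passed with DOX in *Hdac3*+/+ under the replicate block within genotype, as did 2 of the other clock genes. Of the latter, 7 passed at 0 hr with no filter and 7 with the replicate block, and 1 to 6 at each time with 1 sample left out.

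Signs turned for the following log2 values, none of which passed the threshold. At 24 hr *Dbp* was -0.0366 (voom and limma) and -0.0184 (replicate block). With DOX in *Hdac3*+/+ *Cry1* was 0.00445 (voom and limma), 0.00377 (no filter) and 0.00148 (replicate block). The interaction of *Nr1d2* was -0.00615 (voom and limma), -0.00829 (no filter), -0.00809 (replicate block) and -0.011 (replicate block within genotype). With 1 sample left out, the genotype difference at 0 hr ran from -0.148 to 0.0838 for *Clock*, -0.0605 to 0.147 for *Per1* and -0.378 to 0.0612 for *Cry2*, and at 24 hr from -0.0507 to 0.223 for *Per1* and -0.265 to 0.236 for *Dbp*. The DOX change in *Hdac3*+/+ ran from -0.161 to 0.0987 for *Arntl*, -0.161 to 0.0323 for *Per1* and -0.371 to 0.272 for *Cry1*, and in *Hdac3*-/- from -0.236 to 0.0321 for *Nr1d2*, -0.165 to 0.112 for *Per1*, -0.281 to 0.113 for *Cry1* and -0.435 to 0.0117 for *Cry2*. The interaction ran from -0.128 to 0.141 for *Nr1d2*, -0.0892 to 0.188 for *Per1* and -0.366 to 0.277 for *Cry1*. The allelic difference at 0 hr ran from -0.0265 to 0.161 for *Nr1d2*, -0.0211 to 0.0533 for *Arntl* and -0.199 to 0.0857 for *Per1*. The allelic DOX change in *Hdac3*+/+ ran from -0.112 to 0.142 for *Arntl* and -0.0359 to 0.451 for *Per1*, and in *Hdac3*-/- from -0.0321 to 0.278 for *Nr1d2*, -0.414 to 0.292 for *Arntl* and -0.291 to 0.52 for *Clock*.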

Other observations

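Immediate early genes, which serum and signalling switch on within minutes, were listed for comparison. Of 9 genes 8 were tested, and 1 fell between genotypes at each time, beside 13.7% of all genes called at 0 hr and 10.9% at 24 hr. *Junb*, an AP-1 subunit, had 11.1 and 12.5 CPM in *Hdac3*+/+ and 5.80 and 6.42 CPM in *Hdac3*-/- at 0 hr (log2 fold change -0.95, SE 0.21, edgeR adjusted p = 0.0240). The call was lost without either *Hdac3*+/+ replicate, with an adjusted p of 0.129 and 0.199. *Nr4a1*, an orphan nuclear receptor, had 49.3 and 46.7 CPM in *Hdac3*+/+ and 24.8 and 31.6 CPM in *Hdac3*-/- at 24 hr (-0.77, SE 0.16, adjusted p = 0.0185). Leaving out either *Hdac3*+/+ replicate gave an adjusted p of 0.161 and 0.168.

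*Egr1*, another gene of that list, was chosen after its values were seen. It was lower in replicate 1 than in replicate 2 in all 4 groups, with 0.824 and 7.88 CPM in *Hdac3*+/+ at 0 hr, 0.301 and 2.84 at 24 hr, 1.67 and 14.9 in *Hdac3*-/- at 0 hr and 3.52 and 6.04 at 24 hr. The list did not move as one, since *Fosb* and *Ier2* were also lower in replicate 1 in all 4 groups, whereas *Sik1* and *Crem* were higher in it in all 4.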
